A study of Homo sapiens with 8 samples.

Results

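The day 1 and day 7 lists of accessible regions in G401 cells with restored SMARCB1 hold 109876 and 103182 peaks, together 213058 of the 411408 peaks of the whole series. They were chosen by the day in the name of each list, with no measured value used. The assay was ATAC-seq: a transposase inserts sequencing adapters where DNA is not wrapped up, and reads pile up at open sites. Each day had 2 samples, which appear here as 1 joint peak list. G401 is an established rhabdoid tumour line, labelled SMARCB1 -/- at day 0, and the line used carries a stable, inducible SMARCB1. Both induced groups carry the label SMARCB1 +/+ and received doxycycline at 1 µg/ml, for 1 day in one group and 7 days in the other, with Tet-free serum in the medium. The labels do not say whether the line is a single clone. The uninduced samples are all labelled day 0, so days of SMARCB1 and days in culture cannot be told apart.

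SMARCB1 is a core subunit of SWI/SNF, a complex that uses ATP to slide and evict nucleosomes and so keeps enhancers and promoters accessible. Rhabdoid tumours lack it, and the complex that remains binds many distal enhancers poorly. AP-1, a dimer of FOS and JUN family proteins, is known to recruit SWI/SNF to distal enhancers, which is the cooperation named in the title of the study. The comparison of day 7 with day 1 asks which of the regions accessible at the first response were still accessible once the cells had lived with SMARCB1 for a week, and which came later.

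The lists had close to the same background. The genome-wide background is here the commonest of the backgrounds that the caller set the peaks of a list against. It was 6.04 reads on day 1 and 6.10 on day 7, a ratio of 1.01. The smallest summit, the highest point of a peak, held 16 reads on day 1 and 18 on day 7, and the median summits held 51 and 48. Because replicates of a day are in 1 list, no value below comes with a spread between replicates, and no test was made. Intervals in parentheses are 95% intervals. Those of shares treat peaks as independent draws, and those of ratios allow for the counting of reads and nothing else. The genome build is hg19, and the annotation at hand belongs to another build, so genes at the regions were not analysed here, and the label of the line was not checked against marker genes.

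The 2 induced landscapes were largely the same regions, with a fringe of weak and narrow peaks on either side. Of the day 1 peaks, 24688 (22.5%, 22.2 to 22.7) overlapped no day 7 peak by 1 bp or more and are called lost. Of the day 7 peaks, 17425 (16.9%, 16.7 to 17.1) overlapped no day 1 peak and are called gained. The lists covered 65.6 Mb on day 1 and 60.8 Mb on day 7, with 50.6 Mb in common, which was 77.2% of the day 1 bases and 83.2% of the day 7 bases. The Jaccard index, shared bases over all bases covered, was 0.668. There were 1.42 lost peaks for each gained one, but the day 7 list was also shorter. With the 80000 peaks of the largest -log10 p taken from each list, 13060 were lost and 12798 gained, which equal lengths bring close together by construction. With a -log10 q of at least 5 in both lists, 20361 were lost and 13940 gained.

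Lost and gained peaks were alike in median fold and width. Their enrichment is given by the authors' fold, which divides a summit by the background around it. Lost peaks had a median fold of 2.98 and a median width of 281 bp. Gained peaks had a median fold of 3.12 and a median width of 278 bp. Their upper ends differed: 8.51% of the lost and 12.6% of the gained had a fold of at least 4. The 90th percentile of summit reads was 58 for the lost and 47 for the gained. Day 1 peaks that were kept had a median fold of 4.40 and a width of 556 bp, and kept day 7 peaks had 4.20 and 522 bp. In the lowest decile, lost peaks were at most 206 bp wide and gained peaks at most 205 bp, close to the smallest width in the lists of 200 bp. At the limit of the overlap rule, 27 day 1 peaks were kept by an overlap of 1 to 10 bp, with a median fold of 2.92. Another 32 lost peaks ended within 10 bp of a day 7 peak, with a median fold of 2.84.

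Very few peaks of high fold were found on 1 of the 2 days only. Above the limit set for strong peaks, a fold of 6, 99 of 22130 on day 1 (0.447%) were lost and 140 of 19229 on day 7 (0.728%) were gained. This order is the reverse of that over all peaks, and it depended on how strength was set. Strong was also taken as a summit 10 times the genome-wide background or higher. Then 4.79% of such day 1 peaks (2198) were lost and 1.87% of such day 7 peaks (728) were gained. The 99 strong lost peaks held 42 to 85 reads at the summit, with a median of 47, and the 140 strong gained peaks held 42 to 82, with a median of 48. Of these, 97 of the 99 and 137 of the 140 overlapped a day 3 peak, as nearly all peaks of such folds did. At a fold of 6 to 8, all 1935 day 1 peaks without a day 0 peak had a day 3 peak. On day 7 it was 1822 of 1824. The strong lost peaks had a median day 3 fold of 5.31 and the strong gained peaks 5.70. On their own day the medians were 6.53 and 6.48. The limit of 6 was set on their own day and not on day 3, so the lower day 3 folds are partly a product of the choice.

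The list whose name gives no day is treated as day 0, the only day left over, and what follows on day 0 depends on that reading. Peaks without a day 0 peak were found on 1 of the 2 induced days only far more often than peaks with one. Whether a region without a day 0 peak opened with SMARCB1, opened with days in culture or was missed in the shorter day 0 list of 80744 peaks cannot be told apart. Of the 40217 day 1 peaks without a day 0 peak, 54.1% (53.7 to 54.6) were still called on day 7, against 91.0% (90.8 to 91.2) of the 69659 with one. Seen from day 7, 59.9% (59.4 to 60.4) of the 36734 peaks without a day 0 peak had already been called on day 1, against 96.0% (95.8 to 96.1) of the 66448 with one. Of all lost peaks, 25.3% (24.8 to 25.9) had a day 0 peak, and of all gained peaks 15.4% (14.9 to 16.0). Peaks called on day 1 alone made up 39.6% of the lost, and peaks called on days 1 and 3 but neither day 0 nor day 7 a further 35.1%. Among the gained, 44.2% were called on day 7 alone and 40.4% on days 3 and 7 without day 0. Peaks present on days 0, 1 and 3 and missing on day 7 numbered 3707 of the 24688 lost.

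**Figure D1:**
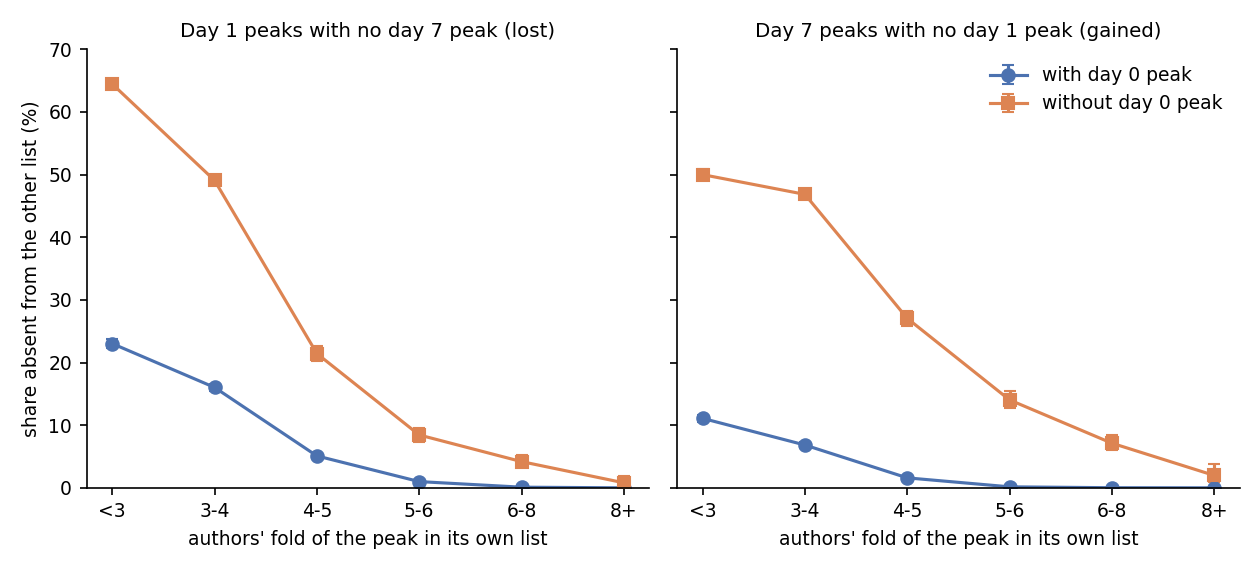
Share of day 1 peaks absent from the day 7 list (left) and of day 7 peaks absent from the day 1 list (right), by the authors' fold of the peak, for peaks with and without a day 0 peak; bars are exact 95% intervals of the share. At every fold the peaks without a day 0 peak were absent more often, from 49.1% against 16.0% at a fold of 3 to 4 to 4.19% against 0.104% at a fold of 6 to 8 in the left panel.

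The difference by day 0 status held at equal fold, as the plot of absent shares by fold shows. At a fold of at least 4 and under 5, 21.4% (1089 of 5082) of day 1 peaks without a day 0 peak were lost, against 5.09% (611 of 11997) of those with one. On the gained side of the same band the shares were 27.1% (1498 of 5537) and 1.59% (190 of 11927). At a fold of at least 8, 5 of 623 day 1 peaks without a day 0 peak were lost, and 0 of 7069 with one (0 to 0.0522%). Equal fold does not mean equal reads, since peaks with a day 0 peak lay on a higher local background. In the band of 6 to 8 their median summit was 88 reads on day 1, against 58 without a day 0 peak.

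A closer match used only peaks on the genome-wide background that also had a day 3 peak, so that fold and reads say the same. The match is not complete: peaks with a day 0 peak had been called on days 0 and 3, the others on day 3 but not day 0. With at least 40 and under 50 reads, 62 of 517 day 1 peaks without a day 0 peak were lost (12.0%, 9.32 to 15.1), against 19 of 2287 with one (0.831%, 0.501 to 1.29). On day 7, 78 of 479 such peaks without a day 0 peak were gained (16.3%, 13.1 to 19.9), against 1 of 1935 with one (0.0517%, 0.00131 to 0.288). With 30 to 40 reads the shares were 18.9% against 7.34% for the lost and 33.6% against 1.89% for the gained. With 50 to 100 reads, 11 of 263 against 1 of 2256 were lost, and 16 of 205 against 0 of 1501 were gained. A day 0 peak thus went with presence on both induced days at each of these heights, and the gap between the shares was wider for gains than for losses in each band. Gains and losses are not matched alike, however. For gains the peak was sought on day 1, which lies between the matched days 0 and 3, and for losses on day 7, after both. The part of this in the wider gap was not tested.

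The 10 lost peaks with the highest folds all lacked a day 0 peak, and by definition a day 7 peak. All had a day 3 peak, as nearly all peaks of such folds did. The first lay at chr19:21346375-21347122, with 72 reads and a fold of 9.06 on day 1, and 55 reads and a fold of 7.12 on day 3. The peak at chr9:119358969-119359497 held the most reads of the 10, 85 on day 1 and 69 on day 3. For a scale, the smallest summit called anywhere on day 7 held 18 reads. At chr7:84914657-84915298 the summit held 58 reads on day 1 and 55 on day 3. At chr3:134677205-134677785 it held 55 and then 62, and at chr2:236713044-236713645 it held 53 and then 63. In these 3 regions the number of reads stayed about level until day 3, when the genome-wide background was 6.73 reads, and the peak was missing on day 7. In contrast chr4:66319133-66319786 went from 57 to 39 reads and chr8:113393642-113394557 from 56 to 36. All 10 were picked for a high day 1 fold, so a drop by day 3 is partly a product of the choice. The day 1 folds of the 10 ran from 7.52 to 9.06 and the day 3 folds from 4.79 to 7.74.

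The 10 gained peaks with the highest folds likewise all lacked a day 0 peak and all had a day 3 peak. The highest, at chr5:95033522-95034484, had a fold of 8.65 with 82 reads on day 7 and a fold of 5.05 with 38 reads on day 3. Chromosome 5 held 4 of the 10. At chr5:32852424-32853034 the day 3 summit was the higher, with 83 reads against 68 on day 7, while chr5:55574099-55574804 went from 42 to 62 reads and chr5:115838273-115838917 from 31 to 54. At chr3:98978435-98979026 the reads went from 36 to 71. At chr8:24526257-24526812 they were 62 on day 3 and 60 on day 7. Some of these regions thus held about as many reads on day 3 as on day 7, or more, and others held fewer. The genome-wide background was 6.73 reads on day 3 and 6.10 on day 7. All 10 were picked for a high day 7 fold, so a rise after day 3 is partly a product of the choice. Their day 7 folds ran from 7.75 to 8.65.

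Summits were compared at 81156 peaks that overlapped exactly 1 peak of the other list, here called shared pairs, of which 25.3% lacked a day 0 peak. To scale a summit, its reads were set against the genome-wide background of its own list. Day 7 summits were slightly lower, with a median of 9.18 times the background against 10.3 on day 1 and a median log2 ratio of -0.12. The quartiles of the log2 ratio were -0.28 and 0.03, and 72.2% were lower on day 7. Scaling by the total of summit reads in place of the background shifts every ratio by 0.14 and brings the median to 0.01. By the authors' fold it was -0.05. Whether shared regions as a whole were lower on day 7 therefore depended on the scaling.

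At least 2-fold differences were rare. The summit was at least 2-fold higher on day 7 at 351 shared pairs (0.433%) and at least 2-fold lower at 592 (0.729%). Scaled by total summit reads the split turned, with 628 higher (0.774%) and 273 lower (0.336%), and by fold 101 were higher (0.124%) and 80 lower (0.0986%). What did not turn was where these pairs were found. Pairs without a day 0 peak made up 94.9% (92.0 to 96.9) of those 2-fold higher and 68.6% (64.7 to 72.3) of those 2-fold lower. With the total scaling these shares were 92.5% and 70.7%, and by fold 96.0% and 76.2%. Among the 60593 pairs with a day 0 peak, only 18 were 2-fold higher (0.0297%, 0.0176 to 0.0469) and 186 lower (0.307%, 0.264 to 0.354). Among the 20563 without one, 333 were higher (1.62%, 1.45 to 1.80) and 406 lower (1.97%, 1.79 to 2.17).

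Lower summits carry more counting error, so the spread of the ratios was compared at equal height. At pairs with a geometric mean of 7 to 10 times the background, the SD of the log2 ratio was 0.49 over 4828 pairs without a day 0 peak and 0.28 over 11435 pairs with one. Counting error of independent reads would give 0.29 in both. At 10 to 15 times the background the SDs were 0.41 and 0.25, against counting errors of 0.24 in both. At 15 to 25 times they were 0.30 over 605 pairs and 0.19 over 12937, against 0.20 and 0.19. Pairs with a day 0 peak thus scattered between day 1 and day 7 by about the counting error in these bands, around the common shift, and pairs without one scattered by more. By the authors' fold the difference was smaller. The SDs were then 0.33 without and 0.24 with a day 0 peak at 7 to 10 times the background. At 10 to 15 they were 0.25 and 0.20, and at 15 to 25 they were 0.19 and 0.15. In the upper 2 of these bands the pairs without a day 0 peak thus lay close to the counting error of reads, and those with one lay below it. Counting error of reads is not the error of a fold, so pairs without a day 0 peak still scattered more by fold than pairs with one.

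**Figure D2:**
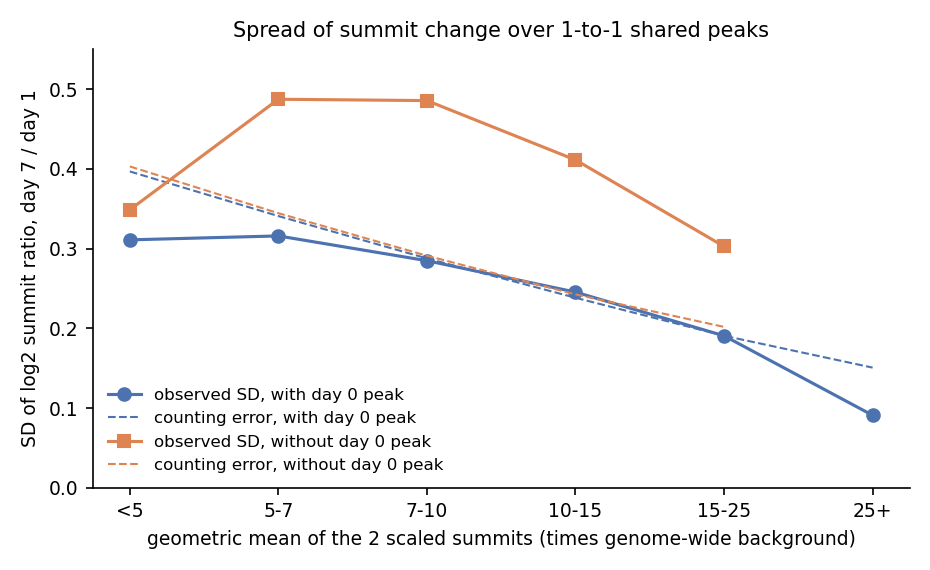
Standard deviation of the log2 ratio of scaled summits, day 7 over day 1, over shared pairs in 6 bands of height (solid lines), beside the SD that counting error of independent reads would give (dashed lines), for pairs with and without a day 0 peak; bands with under 20 pairs are left out. From 5 to 25 times the background the pairs without a day 0 peak lie above the counting error, at 0.49 to 0.30, and those with one lie close to it.

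In the lowest and highest bands the spread was below counting error. Under 5 times the background it was 0.35 and 0.31 against 0.40, where a summit far below its partner is not called at all and the pair is counted as lost or gained. At 25 times the background or more, 9308 pairs with a day 0 peak had an SD of 0.09 against a counting error of 0.15, and 0 of them were 2-fold different. The largest summits of the lists held 287 reads on day 1 and 264 on day 7. Why the tallest summits repeated more closely than independent counts would was not tested. Intervals of ratios at tall summits may for this reason be too wide.

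The day 3 list took no part in choosing these pairs, but both steps below use the day 1 and day 7 summits that did. A pair chosen for its ratio tends to have its low summit set too low and its high summit too high, so the sizes of the steps are a description and carry that choice. Pairs without a day 0 peak that were 2-fold higher on day 7 went from a median scaled summit of 4.14 at first to 8.62 on day 3 and 9.51 on day 7. In log2 the median step was 1.08 from day 1 to day 3 and 0.15 from day 3 to day 7, and the first step was the larger in 306 of 332 pairs with a day 3 peak (92.2%). Pairs without a day 0 peak that were 2-fold lower on day 7 had medians of 11.9, 10.6 and 5.08, with steps of -0.20 and then -1.0. In these the first step was the larger in 31 of 405 (7.65%). The day 3 summits thus lay nearer to the higher of the 2 days in both sets. Where several day 3 peaks overlapped a pair, the highest was taken, and likewise for day 0, which can raise the values of those days.

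The same order was seen when the pairs were chosen by the other scalings, with the summits themselves still scaled by the background. With pairs chosen by the total scaling, the first step was the larger in 90.3% of higher and 5.70% of lower pairs without a day 0 peak. With pairs chosen by fold it was the larger in 88.7% and 1.64%. These steps carry the same choice of a low day 1 or a low day 7 summit. High day 3 summits were also seen where little differed. The 19824 pairs without a day 0 peak and with under 2-fold difference had steps of 0.19 and -0.27, and the first step was the larger in 46.1% of the 17912 with a day 3 peak.

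The 186 pairs that had a day 0 peak and were 2-fold lower on day 7 than on day 1 ended at about their starting level. Before induction their median scaled summit was 6.23, and it stood at 13.8 on day 1, at 11.0 on day 3 and at 6.06 on day 7. The median log2 ratio of day 7 to day 0 was -0.02, and 90 of the 186 were above day 0 on day 7, against 182 on day 1. These pairs were chosen for a high day 1 or a low day 7 summit, so the day 1 excess over day 0 and the return are partly a product of the choice. The level on day 7 also varied with the scaling used to choose the pairs. Lower pairs with a day 0 peak chosen by the total scaling had a median log2 ratio of day 7 to day 0 of -0.12, with 35 of 80 above day 0. Those chosen by fold had -0.64, with 3 of 19 above day 0. The 18 pairs with a day 0 peak that were 2-fold higher had medians of 4.41, 3.97, 6.54 and 8.93 in the order of days, and all 18 were above day 0 on day 7.

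**Figure D3:**
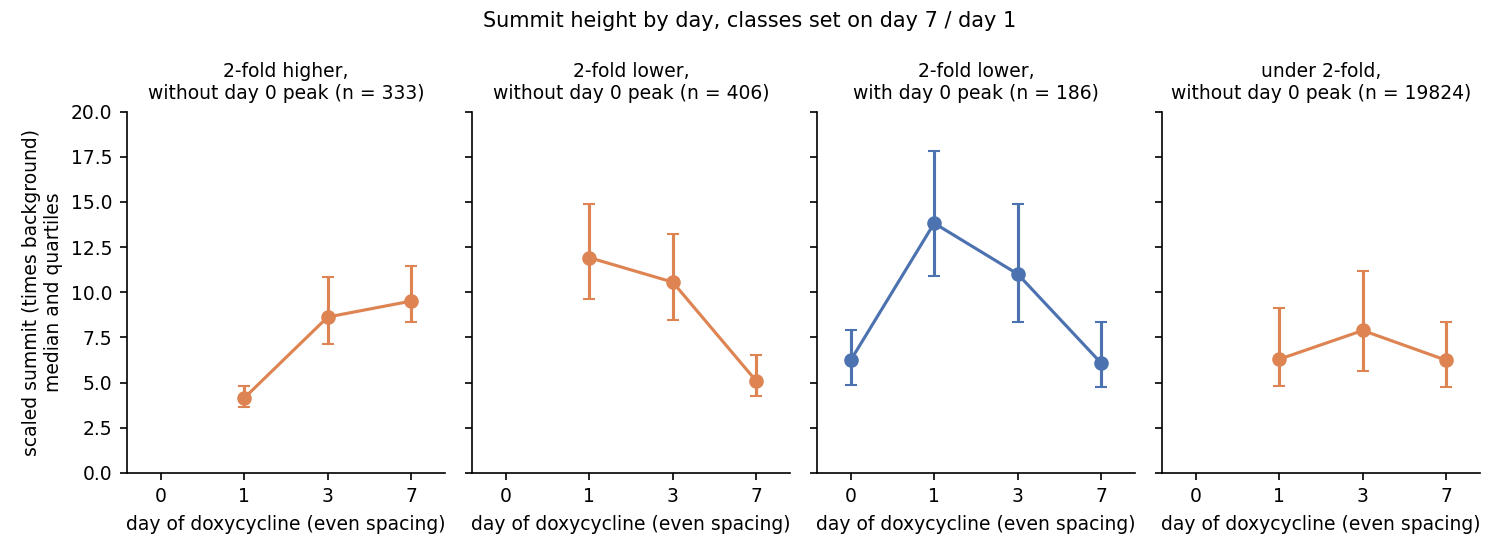
Median scaled summit (points) and quartiles (bars) on each day, in multiples of the genome-wide background, for shared pairs at least 2-fold higher or lower on day 7 than on day 1 and for the remaining pairs without a day 0 peak; pairs without a day 0 peak have no day 0 value. Higher pairs stand at 8.62 on day 3, close to their 9.51 on day 7, and lower pairs at 10.6, close to their 11.9 on day 1.

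The 10 shared pairs with the highest ratios all lacked a day 0 peak and all had a day 3 peak. They and the 10 with the lowest were ranked among 81156, so their ratios may be overstated, and the intervals do not allow for that choice. At chr2:223652448-223653331 the summit held 22, 62 and 90 reads on days 1, 3 and 7, which after scaling was 4.05-fold higher on day 7 than on day 1 (2.52 to 6.79), or 2.30-fold by the authors' fold. At chr3:123413363-123414462 it held 19, 56 and 69 reads, 3.60-fold higher (2.14 to 6.33), and the peak was 240 bp wide on day 1 and 1100 bp on day 7. At chr4:108540253-108541065 the reads were 17, 67 and 60, so that all of the difference was in place by day 3, and this pair had the largest ratio by fold of the 10, at 3.08. The pairs at chr7:40611293-40611888, with 21, 72 and 71 reads, and chr2:201527356-201528001, with 21, 72 and 66, had a similar course. In contrast, chr20:58637783-58638479 held 22, 51 and 79 reads and was still higher on day 7 than on day 3. The 10 ratios ran from 3.11 to 4.05, and the day 1 summits from 17 to 27 reads.

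The 10 pairs with the lowest ratios lacked a day 0 peak in 9 cases. At chr12:51994551-51995798 the summit held 72, 84 and 19 reads on days 1, 3 and 7, which was 0.261 of day 1 after scaling (0.149 to 0.438) and 0.373 by fold. Its width went from 1248 bp to 243 bp. Chromosome 12 held 2 more of the 10, at chr12:125585061-125585822 with 79, 71 and 23 reads and chr12:105741033-105742111 with 101, 92 and 30 reads. At chr1:36994850-36996270 the summit held 115, 112 and 33 reads, a ratio of 0.284 (0.187 to 0.422), while its local background was at 0.476 of day 1, so that by fold the ratio was 0.582. The 1 pair with a day 0 peak was chr15:77621496-77622094, with 24 reads before induction, then 101, 71 and 29 reads. Its day 7 summit of 4.75 times the background was near the day 0 value of 3.78. At chr8:28310887-28311578 and chr5:94132015-94132806 the day 3 summits of 93 and 82 reads were no lower in reads than the 85 and 75 of day 1, and the day 7 summits held 26 and 23.

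**Figure D4:**
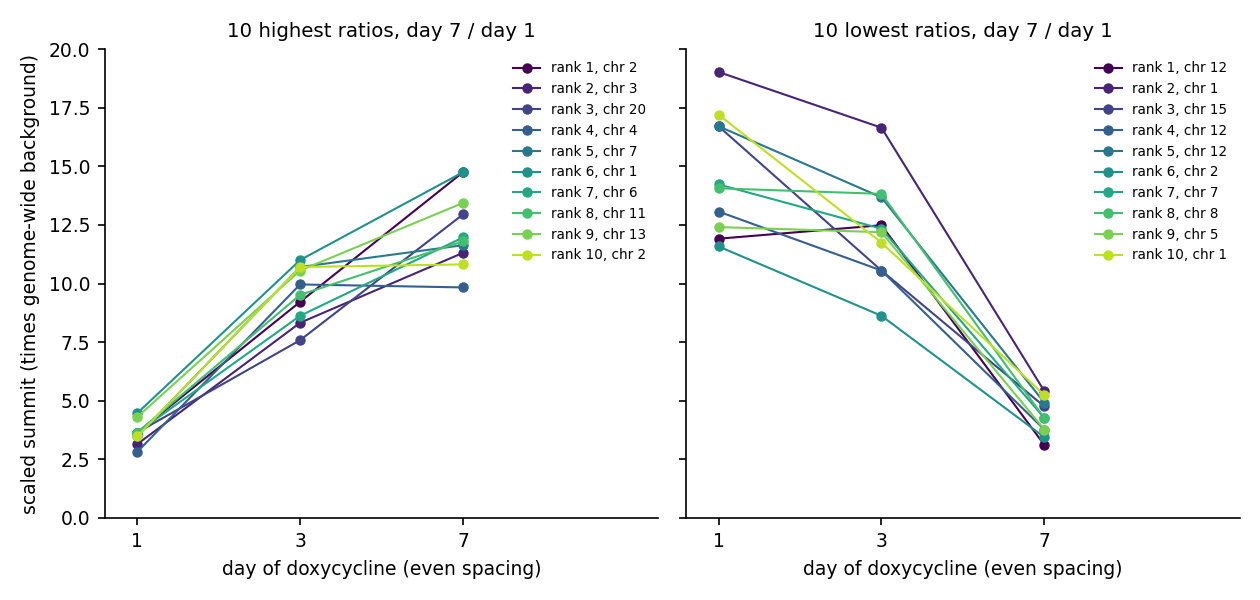
Scaled summit on days 1, 3 and 7 of the 10 shared pairs with the highest (left) and the 10 with the lowest (right) ratio of day 7 to day 1, in multiples of the genome-wide background; each line is 1 region, labelled by rank and chromosome. On the left every line is higher on day 3 than on day 1, and the one on chromosome 20 stands at 7.58 on day 3 and 12.9 on day 7. On the right every line drops after day 3, to between 3.11 and 5.41 on day 7.

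Shared peaks were slightly narrower on day 7, with a median of 522 bp against 551 bp on day 1 and a median log2 ratio of -0.05. At least 2-fold wider peaks numbered 1255 (1.55%) and at least 2-fold narrower ones 2044 (2.52%). Pairs without a day 0 peak made up 73.3% (70.8 to 75.7) of the wider and 51.7% (49.5 to 53.9) of the narrower, against 25.3% of all pairs. Width went with height: pairs with 2-fold lower summits went from a median of 758 bp to one of 417 bp, and those with 2-fold higher summits from 345 bp to 702 bp. Across the 81156 pairs the correlation of the 2 log2 ratios was 0.51 (Pearson), with both values of a pair read from the same peaks. At the 58327 pairs whose log2 summit ratio was under 0.32 in size, the median log2 width ratio was -0.03, and 493 were 2-fold wider and 671 narrower. With a reciprocal overlap of at least 50%, which itself bars a width ratio over 2, 10 were wider and 16 narrower.

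Some well enriched regions differed in width with little difference in height. Among the 40633 pairs with a fold of at least 4 on both days, the largest widening was at chrX:21950560-21951594, from 291 bp to 1028 bp, with 53 reads on day 1 and 46 on day 7 at the summit. At chr3:187754599-187755999 the width went from 408 bp to 1401 bp with 38 and 46 reads. In the other direction, chr3:8458697-8459506 went from 810 bp to 243 bp with 35 and 31 reads, and chr2:24679522-24680339 from 808 bp to 242 bp with 34 and 28 reads. The summit ratios of these 4 had intervals that include 1, as had those of 2 other widenings, at chr6:25193254-25194232 and chr7:87649574-87650718. Such intervals do not exclude a moderate difference in height. At chr9:80346221-80347466 the narrowing from 1246 bp to 332 bp came with a lower summit, 58 reads on day 1 and 32 on day 7 (ratio 0.547, 0.343 to 0.856). The narrowings at chr7:37182306-37183298 (ratio 0.338, 0.215 to 0.516) and chrX:65152054-65152952 (0.555, 0.336 to 0.898) also came with lower summits. The widening at chr1:12513952-12515012 came with a higher one (1.72, 1.08 to 2.79).

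The summits of shared pairs sat at nearly the same position. The median distance was 36 bp, with 78.3% within 100 bp and 96.7% within 250 bp. The distance was smaller where both peaks were well enriched: 18 bp at the 16506 pairs with a fold of at least 6 on both days, 31 bp where the lower fold was 4 to 6 and 52 bp where it was under 4. Peaks that broke up or merged were few. On day 1, 1749 peaks (1.59%) spanned 2 or more day 7 peaks, with a median width of 1121 bp, and on day 7, 1203 (1.17%) spanned 2 or more day 1 peaks, with a median width of 1047 bp. No peak spanned more than 3. Most of these broad peaks had a day 0 peak, 79.3% on day 1 and 75.4% on day 7.

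Lost and gained peaks seldom lay right beside a peak of the other list. The median gap was 5010 bp for lost and 5327 bp for gained peaks. Only 5.79% of the lost and 6.88% of the gained lay within 250 bp, while 3.43% and 5.33% lay over 50000 bp away. How this compares with the spacing of all peaks was not tested. Isolated weak peaks were shared least. Of day 1 peaks with a fold under 3, 64.0% (63.0 to 64.9) were on day 7 when another day 1 peak lay within 1000 bp, and 32.9% (29.3 to 36.7) when the nearest was at least 20000 bp away. With a fold of 4 to 6 the shares were 96.3% (95.7 to 96.8) and 87.4% (86.3 to 88.4). At equal fold the isolated peaks also held fewer reads, with medians of 20 against 60 in the first band and 34 against 79 in the second, and the part of read number in the difference was not tested.

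The log2 summit ratios of neighbouring shared peaks were correlated, with higher values among pairs without a day 0 peak, whose ratios also had the larger spread. For consecutive shared pairs without a day 0 peak and at most 2000 bp apart, the correlation of the log2 summit ratios was 0.49 (Pearson; Spearman 0.46; 797 neighbour pairs). It was 0.30 at 2000 to 10000 bp (2262). For pairs with a day 0 peak the values were 0.29 (4909) and 0.15 (16625). Neighbours share the same 2 lists and, at short distance, reads. The nearest shared pair within 10000 bp of a 2-fold lower pair had a median log2 ratio of -0.27 (386 cases), and that of a 2-fold higher pair 0.21 (137), against -0.14 for all pairs with such a neighbour (51751).

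In 4 places, chosen after their values were seen, 3 pairs with 2-fold lower summits lay with gaps of at most 50000 bp, and in 0 places 3 with higher summits. Only scaling by the background was used here, by which 72.2% of all shared pairs were lower on day 7, and the 3 pairs that define each place are lower by choice. At chr12:104816810-104869386 all 8 shared pairs in 52.6 kb were lower on day 7, with a median log2 ratio of -0.89, and the first went from 119 reads on day 1 to 82 on day 3 and 37 on day 7. At chr2:152890659-152912838 all 6 shared pairs in 22.2 kb were lower, with 102, 71 and 85 reads on day 1 at the 3 named ones and 47, 35 and 38 on day 7. In reads, their day 3 summits of 100, 73 and 82 were close to day 1. The genome-wide background was 6.73 reads on day 3 and 6.04 on day 1, so after scaling they were somewhat lower on day 3. At chr12:46261097-46281975 all 4 shared pairs were lower, and at chr6:34919154-34983179, 7 of 9.

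Over all peaks, chromosomes differed more in the share gained than in the share lost. Over 23 chromosomes, with Y left out, the share of day 1 peaks lost ran from 19.2% on chromosome 19 to 24.5% on chromosome 22. The share of day 7 peaks gained ran from 9.04% on chromosome 19 (8.18 to 9.96) to 21.2% on chromosome 13 (19.6 to 22.9), with 13.3% on chromosome 17. Chromosomes 19 and 17 are known to be rich in genes and chromosome 13 poor in them. At equal fold the shares lost differed about as much as the shares gained, while chromosomes 19 and 13 stayed far apart in the share gained. At a fold of 3 to 4 the share gained ran from 9.40% on chromosome 19 to 35.7% on chromosome 13, and the share lost from 19.2% on chromosome 19 to 44.4% on chromosome X. Chromosome 19 stayed lowest in both, and chromosome 17 had 17.0% gained in this band. Chromosome X, with 14.4% gained over all peaks, had 31.9% in it. The share of day 7 peaks without a day 0 peak was 17.3% on chromosome 19 and 43.5% on chromosome 13. Among these peaks alone the gained share was 36.8% on chromosome 19 and 42.0% on chromosome 13, within a range of 35.6% to 43.5% over all 23. The median log2 summit ratio of shared pairs was between -0.16 and -0.10 on every one of the 23.

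**Figure D5:**
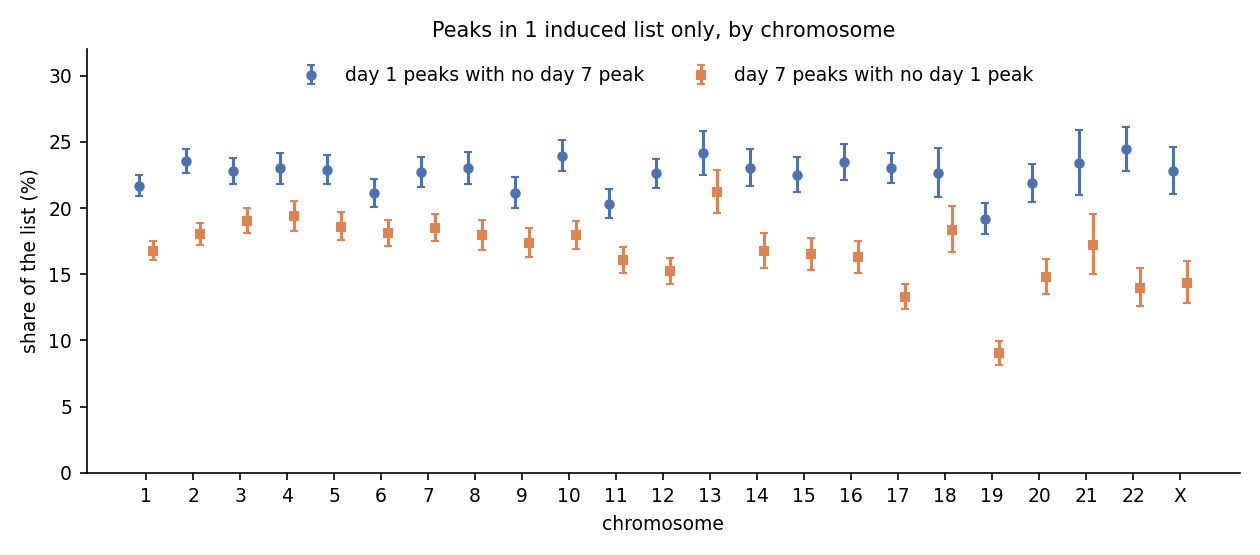
Share of day 1 peaks with no day 7 peak and of day 7 peaks with no day 1 peak on each chromosome, with exact 95% intervals. Lost shares lie between 19.2% and 24.5%, while gained shares fall to 9.04% on chromosome 19 and reach 21.2% on chromosome 13.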

How the data were processed

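Per the labels, G401 cells were sampled on days 0, 1, 3 and 7 with 2 replicates each, 8 samples in all. The submitters' processing notes name hg19 as the build, and MACS2 2.1.1.20160309, deepTools and Bowtie2 as tools. Nothing in those notes or the labels states the read filters, a transposase offset or how replicates were joined. The deposited file joins 4 peak lists. The deposited fold is the ratio of summit to local background, and the -log10 of p-value and of q-value, deposited beside it, are the caller's. The authors' score is 10 times the second of these without its decimals.

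Summit reads were recovered from fold and p together, with 1 added to reads and to background in the fold, and a Poisson tail for p. A whole number of reads met the -log10 p of every peak to 0.000863, while any other number missed it by 0.0272 or more. The commonest background of a list served as its genome-wide background. Overlaps of 1 bp or more were found with bedtools 2.31.1. The recovery of reads and the overlap classes were tested on simulated data. Intervals are exact: Clopper-Pearson for shares, conditional binomial for ratios of reads. PCR copies of 1 molecule would make ratio intervals too narrow. Counting error of a log2 ratio was taken as the root of the mean of (1/reads + 1/reads), in log2 units. Python 3.11.15, NumPy 2.4.6, pandas 2.3.3, SciPy 1.17.1 and matplotlib 3.10.9 were used.

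The rule for named regions took the 10 lost and 10 gained peaks of highest fold, the 10 highest and 10 lowest summit ratios, and the 5 largest widenings and 5 narrowings at a fold of at least 4 on both days. It, the members and the tests were chosen with earlier results of these data known. The match at the genome-wide background, height bands, day 3 steps, distances, neighbours and chromosomes were chosen after the values were seen.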

Additional observations from a re-analysis of the deposited data

How the results depend on the processing

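No paired analysis was possible because each day has 1 joint list with no value per replicate, so neither a replicate block nor leaving out a replicate could be run. Gained peaks numbered 11294 when members needed a -log10 q of at least 5 and were sought among all peaks, and lost peaks 13060 with 80000 peaks in each list. The remaining settings for lost and gained peaks kept both counts within 1.5 times. Of strong day 1 peaks and strong day 7 peaks, 1.18% and 1.64% lacked a partner at a fold of at least 5, and 4.11% and 4.52% (2101 and 2199 peaks) at 4. The shares were 4.79% and 1.87% (2198 and 728) with a summit of at least 10 times the background, and 1.5% and 1.72% (331 and 330) with reciprocal overlap of at least 50%.

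For summits at shared pairs, the median log2 ratio, the number 2-fold higher and the number 2-fold lower were -0.05, 101 and 80 by the authors' folds. They were 0.01, 628 and 273 with total summit reads, which turned the direction of the median, and -0.12, 89 and 158 at a fold of at least 4 on both days. With reciprocal overlap 198 were higher. The share without a day 0 peak was 76.2% of the lower pairs by folds and 97.0% of the higher with reciprocal overlap. For width, the median, wider and narrower pairs were -0.04, 126 and 159 at a fold of at least 4, -0.03, 493 and 671 with log2 summit ratios under 0.32 in size, and -0.05, 10 and 16 with reciprocal overlap. Of lost peaks, 20.9% had a day 0 peak and 41.6% a day 3 peak with reciprocal overlap, and 34.2% and 82.6% at a fold of at least 4. Of gained peaks the shares were 12.1% and 38.9%, and 9.41% and 78.9%. Apart from the settings whose own construction leaves fewer peaks or pairs, the cause was not tested. Counting error limits single weak peaks: the smallest summits hold 16 and 18 reads.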
